A study of Mus musculus with 33 samples.

Results

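The transcripts of 10 genes that bring amino acids into cells or make serine, glycine and one-carbon units were followed through blood stem and progenitor cells of old mice. They are *Slc7a5*, *Slc3a2*, *Slc1a5*, *Slc38a2*, *Slc7a11*, *Asns*, *Psat1*, *Phgdh*, *Shmt2* and *Mthfd2*, 10 of the 55376 gene symbols counted in each library. *Slc7a5* was selected on its higher level in CPM (reads scaled to a common library total) in HSCs of cohort 2 after nicotinamide riboside (NR), a vitamin B3 form that is converted to NAD+, and the other 9 were added as genes of amino acid supply. Values of these 10 genes in that HSC comparison are therefore given as a description, with no p-value. All mice were old males on the C57BL/6 background, 24 to 29 months of age. O-WT mice were untreated, O-NR mice had NR in the drinking water for 4 to 6 weeks, and O-NR-RC mice had NR withdrawn for 2 months after that course. Cohort 2 holds 4 O-WT and 4 O-NR libraries of each of 3 cell types, which are hematopoietic stem cells (HSCs), the lymphoid-committed CLPs (common lymphoid progenitors) and the GMPs (granulocyte-monocyte progenitors). Cohort 1 holds HSCs alone, with 2 libraries from O-WT mice, 4 from O-NR mice and 3 from O-NR-RC mice. HSCs were sorted as lineage-negative, c-Kit+, Sca1+, CD34-, Flk2- and CD150+ cells, and CLPs as lineage-negative, IL-7Rα+ and Flk2+ cells. One label field calls the GMP libraries common myeloid progenitors, and the name GMP follows their titles and the study. Neither the labels nor the methods say that each library came from 1 mouse, so p-values measure the spread between these libraries, which may be partly technical.

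*Slc7a5* (LAT1) and *Slc3a2* (CD98) encode the light and heavy chains of a plasma membrane exchanger for large neutral amino acids such as leucine. *Slc7a11* (xCT) is another light chain that pairs with *Slc3a2*, and it imports cystine in exchange for glutamate. *Slc1a5* (ASCT2) and *Slc38a2* (SNAT2) carry small neutral amino acids, including glutamine. *Phgdh* and *Psat1* catalyse the opening steps of serine synthesis from a glycolytic intermediate, *Shmt2* turns serine into glycine in mitochondria, and *Mthfd2* oxidizes the one-carbon unit that this step releases, using NAD+ or NADP+. *Asns* makes asparagine. When amino acids are short, the transcription factor ATF4 raises many of these genes through the C/EBP-ATF response element, and proliferating blood progenitors are known to depend on amino acid import and on folate-linked reactions.

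Promoter sequences are shown because several of these genes are textbook targets of ATF4, and those printed are the windows in which the core of its element was found. RefSeq promoters (GRCm38.p6, from 250 bases before to 50 bases after the start) were matched for 8 of the 10 genes, and *Slc7a5* and *Slc1a5* had no entry. The core TGATGNAA, searched on both strands, was found in 1304 of 32851 promoters (3.97%) and in 2 of the 8 genes, *Slc7a11* and *Asns*. Capitals mark the match, and both windows lie on the minus strand of the genome and are written 5′ to 3′ along the gene.
Slc7a11 (chr3:50443644-50443693): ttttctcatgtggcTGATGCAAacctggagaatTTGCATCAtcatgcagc
Asns (chr6:7693214-7693242): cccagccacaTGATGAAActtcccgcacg
In *Slc7a11* one copy lay 66 to 59 bases before the start along the gene, and a copy on the opposite strand lay 47 to 40 bases before it. In *Asns* the copy lay 23 to 16 bases before the start. The E-box CACGTG, to which Myc family factors bind, was found in 2349 promoters (7.15%) and in 0 of the 8 genes. These matches describe letters in the window and do not show that a factor binds there.

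Counted reads per library ranged from 4792380 to 18213674 in cohort 2 and from 8897256 to 23816042 in cohort 1. Libraries of cohort 2 carried the markers of their labelled cell type. The 5 HSC markers summed to 859 to 1566 CPM in O-WT HSCs against 47.2 to 61.7 in CLPs and 29.1 to 44.7 in GMPs. The 5 CLP markers summed to 1566 to 3476 CPM in O-WT CLPs against 27.0 to 36.1 in HSCs, and the 5 GMP markers to 18111 to 22937 CPM in O-WT GMPs against 67.6 to 136 in HSCs. Reads on 1736 olfactory and vomeronasal receptor genes, which are known from sensory neurons, were summed in each library as a measure of its quality. In cohort 1 they split the libraries, with 10691 to 11238 CPM in O-NR replicates 1 and 2 and O-NR-RC replicates 2 and 3 and 6377 to 9011 CPM in the other 5 libraries. These 4 libraries also stood at one end of the first principal component, which held 74.1% of the variance of cohort 1. Their HSC markers summed to 499 to 584 CPM, against 945 to 1530 CPM in the other 5 libraries. Plasma and B cell markers summed to 45.0 to 267 CPM in O-NR-RC, 20.5 to 39.3 CPM in O-NR and 26.3 to 27.4 CPM in O-WT HSCs of cohort 1. The part of these markers in the values of cohort 1 was not tested. In cohort 2 the receptor reads ranged from 1055 to 4781 CPM, and the highest value belonged to the O-WT CLP replicate 3, which was also the library with the fewest counted reads.

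The question of where these genes are used was first asked in untreated mice. CLPs and GMPs are separate lymphoid and myeloid branches, so the order of the cell types is a ranking and not a course. The mean was lowest in HSCs, higher in CLPs and highest in GMPs for 7 of the 10 transcripts, and the same ranking was found in O-NR mice. Of the 10, 6 were higher and 2 lower in CLPs than in HSCs, 7 were higher and 0 lower in GMPs than in HSCs, and 7 were higher and 0 lower in GMPs than in CLPs, at an adjusted p below 0.05 by edgeR's quasi-likelihood test. Among all 20044 genes tested, 30.3%, 44.2% and 60.8% were called in either direction in these 3 comparisons, with 10.4%, 22.6% and 28.6% called higher and 19.9%, 21.5% and 32.2% lower. The median log2 fold change of the 10 was 0.53, 1.39 and 1.02, against 0.078, -0.31 and -0.28 over all genes tested. Libraries of the 2 groups did not overlap for 2 transcripts that were higher and 1 that was lower in CLPs than in HSCs (9.25% and 14.8% of all genes), for 7 higher in GMPs than in HSCs (20%) and for 6 higher in GMPs than in CLPs (25.7%). As these are bulk libraries, fewer cells that use a gene and less of its RNA per cell cannot be told apart.

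*Slc7a5* (chr8:121881150-121907694, minus strand, GRCm38) had the widest range of the transporters, and its 3 cell types did not overlap. In CPM it was 18.2, 11.6, 13.9 and 15.9 in the 4 O-WT HSC libraries, 52.2, 51.9, 26.1 and 57.7 in CLPs and 129, 131, 105 and 87.7 in GMPs. The mean in GMPs was 7.61 times that in HSCs. The log2 fold change was 1.67 (SE 0.19, adjusted p = 4.58e-08) in CLPs over HSCs, 2.93 (SE 0.19, adjusted p = 9.38e-13) in GMPs over HSCs and 1.26 (SE 0.18, adjusted p = 2.96e-06) in GMPs over CLPs, all by edgeR's quasi-likelihood test.

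Its partner *Slc3a2* (chr19:8706882-8723369, minus strand) followed another order, lowest in CLPs. Its CPM values were 71.7, 39.03, 43.8 and 66.03 in HSCs, against 24.3, 34.6, 28.2 and 48.5 in CLPs and 93.9, 98.7, 80.8 and 73.2 in GMPs. HSC and CLP libraries overlapped, though the difference passed the test (-0.66, SE 0.19, adjusted p = 0.00747), whereas every GMP library lay above all HSC and CLP libraries (0.66 over HSCs, adjusted p = 0.00433, and 1.33 over CLPs, adjusted p = 2.62e-06, edgeR). The 2 chains of the exchanger thus had opposite differences between CLPs and HSCs.

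*Slc1a5*, the glutamine carrier, differed by less, with means of 44.1 ± 10.2 CPM (SD, n = 4) in HSCs, against 60.05 ± 14.5 in CLPs and 82.6 ± 8.17 in GMPs. Its GMP values lay above all HSC values (0.90, SE 0.17, adjusted p = 5.98e-05, edgeR). The differences of CLPs over HSCs and of GMPs over CLPs were 0.46 (adjusted p = 0.0393) and 0.44 (adjusted p = 0.025, edgeR), and neither call held without each library in turn. Without 1 of HSC replicates 1, 2 or 3, CLP replicates 1, 2 or 4 or GMP replicates 1 or 3 the first had an adjusted p of 0.0517 to 0.176, and without HSC replicate 3 or CLP replicates 2 or 3 the second had 0.0795 to 0.127. The first also did not pass with DESeq2 (0.50, adjusted p = 0.0655) or with edgeR in one model over the 24 libraries (0.44, adjusted p = 0.101). *Slc38a2* ranged from 105 to 193 CPM in HSCs, against 95.5 to 233 in CLPs and 177 to 215 in GMPs, and no difference passed the test, that of GMPs over HSCs missing it narrowly (0.48, SE 0.20, adjusted p = 0.0527, edgeR). That difference passed in 5 of the 12 fits that left out 1 library, those without HSC replicates 1 or 4, CLP replicates 3 or 4 or GMP replicate 4 (adjusted p from 0.0112 to 0.0487), and the difference of CLPs over HSCs passed without CLP replicate 3 (0.44, adjusted p = 0.0442). With the replicate number as a block GMPs over HSCs was 0.51 (adjusted p = 0.031, edgeR).

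*Slc7a11* was the flattest of the 10. Its CPM values were 6.90, 6.41, 6.70 and 6.03 in HSCs, against 6.61, 9.10, 9.97 and 5.55 in CLPs and 5.37, 7.03, 6.07 and 10.8 in GMPs, and the highest mean was 1.20 times the lowest. No comparison passed the test (log2 fold changes of 0.30, 0.15 and -0.15, each with an SE of 0.29), and with other scalings the last 2 turned sign. Its gene is the longest of the set (chr3:49892526-50443614, GRCm38) and overlaps 5 other annotated genes, 3 of them on the opposite strand, so that some of its reads may belong to neighbours if the counting did not use strand, which is not stated. *Gm37498* and *Gm37692* lie on the same strand as *Slc7a11*, where the use of strand would not separate reads. They reached at most 7.69 and 1.62 CPM in any library. *Gm37854*, *Gm2345* and *Gm37826* on the opposite strand reached at most 13.7, 2.30 and 0.926 CPM. The limit on strand holds for *Psat1* and *Shmt2*. Each overlaps 1 gene on the opposite strand, which reached at most 1.72 and 4.68 CPM in any library. *Mthfd2* overlaps *Gm43890* on its own strand, which reached at most 8.21 CPM and which the use of strand would not separate. *Slc7a5* overlaps *Gm20388* on the opposite strand, to which 0 reads were assigned in all 33 libraries.

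**Figure D1:**
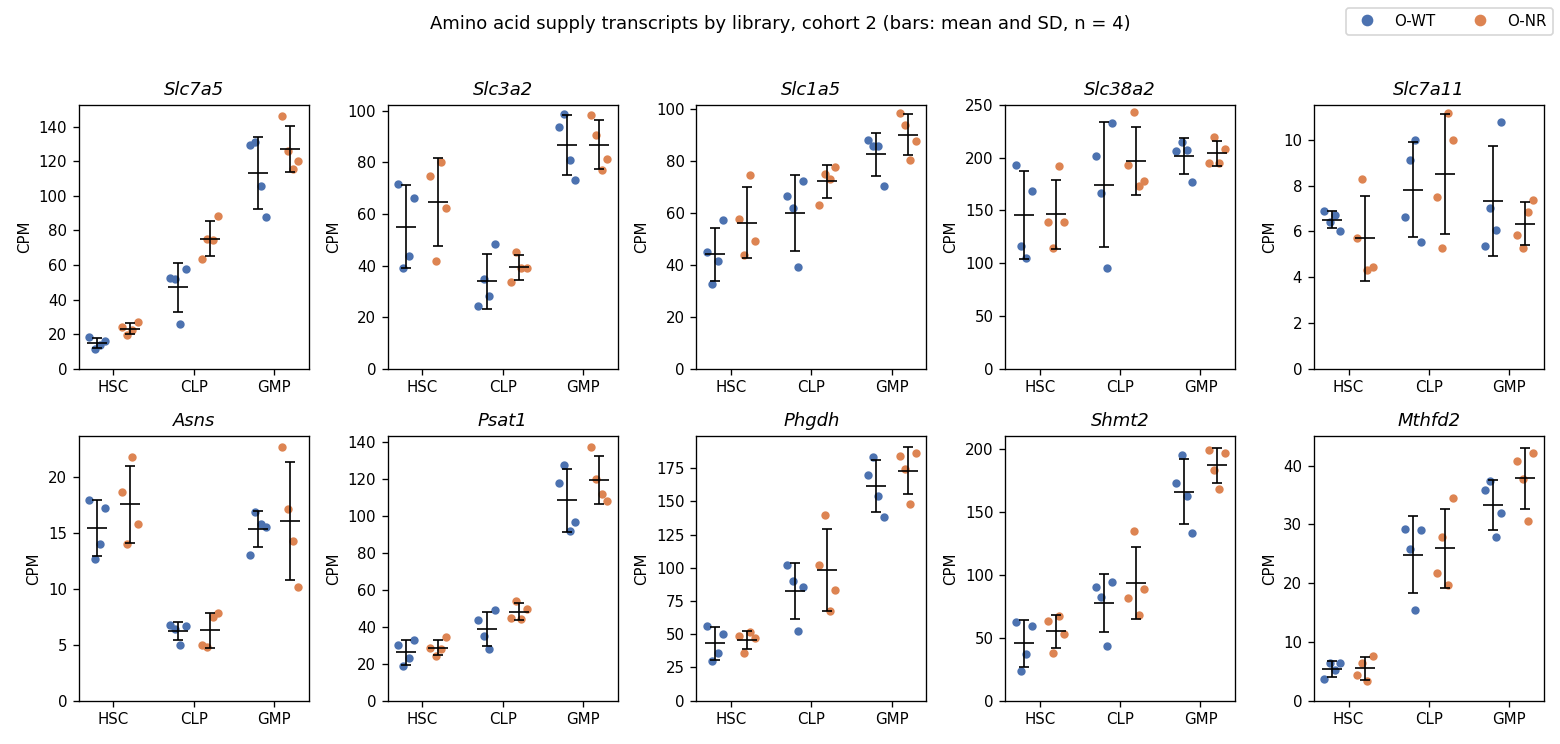
Level of each transcript in CPM (vertical axis, starting at 0) in every library of cohort 2, by cell type, with O-WT in blue and O-NR in orange and bars for mean and SD of 4 libraries. The means rank HSC, CLP, GMP from low to high in 7 panels, *Slc3a2* and *Asns* are lowest in CLPs, and *Slc7a11* stays between 4.33 and 11.2 CPM in all 24 libraries.

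The enzymes of serine synthesis were higher in both kinds of progenitor than in HSCs. *Phgdh* (chr3:98313170-98339990, minus strand) measured 56.3, 30.1, 35.6 and 50.2 CPM in HSCs, against 102, 89.9, 52.6 and 85.7 in CLPs and 170.2, 183, 154 and 138 in GMPs. GMPs lay above all other libraries, while 1 CLP library, replicate 3, lay within the HSC range. The log2 fold change was 0.96 (SE 0.18, adjusted p = 0.000123) for CLPs and 1.92 (SE 0.19, adjusted p = 1.52e-09) for GMPs over HSCs by edgeR. *Psat1* had means of 26.03 ± 6.56 CPM in HSCs, against 38.8 ± 9.31 in CLPs and 108 ± 16.95 in GMPs (SD, n = 4 each). Its rise was 0.60 in CLPs (SE 0.17, adjusted p = 0.00884) and 2.06 in GMPs (SE 0.18, adjusted p = 1.26e-10) over HSCs. The CLP call was lost without HSC replicate 3, CLP replicate 1 or CLP replicate 4, where the adjusted p was 0.0534 to 0.0784 (edgeR).

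The mitochondrial enzymes downstream of serine were also higher in both. *Shmt2* ranged over 23.6 to 62.5 CPM in HSCs, against 43.6 to 94.3 in CLPs and 133 to 195 in GMPs, and was 0.80 (adjusted p = 0.00554) and 1.88 (adjusted p = 5.42e-08) higher than in HSCs on the log2 scale (edgeR). *Mthfd2* measured 3.59, 6.41, 5.22 and 6.39 CPM in HSCs, against 29.2, 25.7, 15.3 and 29.1 in CLPs and 35.8, 37.4, 27.9 and 31.98 in GMPs. Every CLP and GMP library lay above every HSC library, with log2 fold changes of 2.18 (SE 0.21, adjusted p = 3.02e-09) and 2.59 (SE 0.21, adjusted p = 6.86e-11, edgeR). Between GMPs and CLPs the difference of 0.41 did not pass (SE 0.19, adjusted p = 0.0706, edgeR), though it did in the fits without HSC replicate 1, CLP replicates 1 or 4 or GMP replicates 3 or 4 (adjusted p from 0.0312 to 0.0403).

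*Asns* stood apart from the serine enzymes by being low in CLPs. It measured 17.9, 12.6, 14.01 and 17.2 CPM in HSCs, against 6.72, 6.40, 4.99 and 6.64 in CLPs and 13.05, 16.8, 15.8 and 15.5 in GMPs. All 4 CLP libraries lay below all HSC and GMP libraries, by -1.29 against HSCs (SE 0.20, adjusted p = 6.23e-06), and GMPs were 1.28 above CLPs (SE 0.20, adjusted p = 7.97e-06, edgeR). HSCs and GMPs did not differ beyond their spread (-0.01, SE 0.19).

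**Figure D2:**
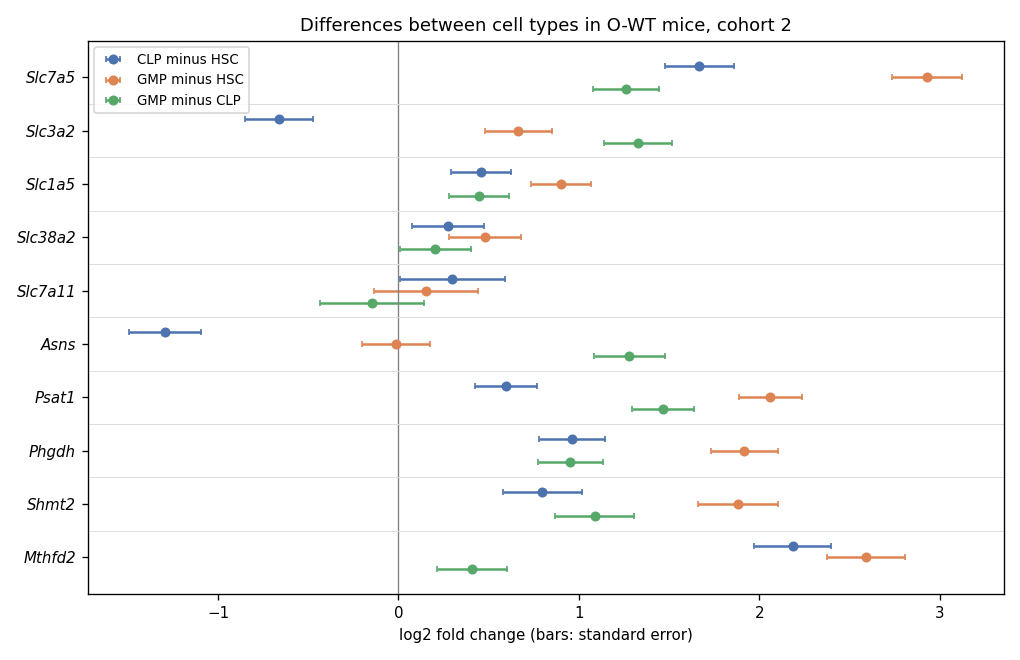
Log2 fold change between cell types of O-WT mice (horizontal axis, points with bars of 1 standard error) for each transcript, with CLP minus HSC in blue, GMP minus HSC in orange and GMP minus CLP in green. *Slc7a5* and *Mthfd2* reach 2.93 and 2.59 in GMPs over HSCs, and *Slc3a2* and *Asns* lie to the left of 0 in CLPs over HSCs.

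The size of these differences depends on how libraries are scaled. Against the TMM scaling used here, DESeq2's size factors moved the median gene by 0.041, 0.18 and 0.14 on the log2 scale in CLPs over HSCs, GMPs over HSCs and GMPs over CLPs, and upper quartile scaling moved it by 0.21, -0.26 and -0.46. With these scalings 34.3%, 51.2% and 47.1% of the calls over all genes were in the higher direction with TMM, 43.5%, 59.9% and 51% with DESeq2 and 51.2%, 37.9% and 23.5% with upper quartile scaling. Relative to the median gene, 8, 10 and 10 of the 10 transcripts were higher in the 3 comparisons under each of the 3 scalings. In GMPs over CLPs, *Slc1a5*, *Slc38a2* and *Mthfd2* turned to values between -0.25 and -0.018 with upper quartile scaling, and the difference of *Slc7a5*, *Slc3a2*, *Asns*, *Psat1*, *Phgdh* and *Shmt2* kept its direction and its call. In CPM without TMM factors 5 rather than 8 of the 10 had their highest O-WT mean in GMPs. With receptor gene reads as a covariate 4 rather than 7 were called higher in GMPs than in CLPs, *Slc1a5* (0.074), *Phgdh* (0.43) and *Shmt2* (0.28) no longer passing (adjusted p from 0.0783 to 0.853, edgeR). With no filter on low counts 4 rather than 8 were called in CLPs over HSCs, as *Slc3a2*, *Slc1a5*, *Psat1* and *Shmt2* no longer passed (adjusted p from 0.0713 to 0.533, edgeR). The share of all genes called was not counted with the covariate or with no filter, so these losses are not particular to the 10.

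Wider lists were counted in the same comparisons. Over all genes tested, 10.4% were called higher and 19.9% lower in CLPs than in HSCs. The shares were 22.6% and 21.5% in GMPs over HSCs, and 28.6% and 32.2% in GMPs over CLPs. Of 32 amino acid transporters beyond the 5 above, 28 were tested, with 6 higher and 5 lower in CLPs than in HSCs, 9 higher and 5 lower in GMPs than in HSCs, and 6 higher and 12 lower in GMPs than in CLPs. Their median log2 fold changes in these 3 comparisons were 0.28, -0.24 and -0.50, against 0.078, -0.31 and -0.28 over all genes. *Slc16a10*, an aromatic amino acid transporter, was higher in both progenitors (2.07 in CLPs and 2.73 in GMPs), and the neutral amino acid transporter *Slc6a15* was lower in both (-2.39 and -3.19). *Slc7a8* (LAT2), another light chain partner of *Slc3a2*, was lower in CLPs than in HSCs (-1.58) and higher in GMPs than in CLPs (2.61). The lysosomal transporter *Slc36a1* was 1.92 higher in GMPs than in HSCs.

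Of 30 further enzymes of serine, glycine and folate one-carbon metabolism, 29 were tested, with 5 higher and 5 lower in CLPs and 15 higher and 5 lower in GMPs than in HSCs, and 16 higher and 4 lower in GMPs than in CLPs. Over all genes 10.4% were higher and 19.9% lower in CLPs, and 22.6% and 21.5% in GMPs, than in HSCs. In GMPs over CLPs 28.6% were higher and 32.2% lower. *Tyms*, which makes thymidylate with a folate carbon, was higher in both (1.77 and 2.26), while *Aldh1l1*, which burns the folate carbon, was lower in both (-1.46 and -1.82). *Shmt1*, the cytosolic counterpart of *Shmt2*, was 2.20 higher in GMPs than in HSCs. Of 22 tested enzymes, of 24 listed, that make or break down other amino acids, 3 were higher and 3 lower in CLPs and 11 higher and 1 lower in GMPs than in HSCs. *Ass1*, of arginine synthesis, rose to 1.98 and 3.29, and *Glul*, which makes glutamine, was the 1 that was lower in GMPs (-2.57) and was also lower in CLPs (-2.86).

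Regulators moved in both directions. Over all genes tested, 10.4% were called higher and 19.9% lower in CLPs, and 22.6% and 21.5% in GMPs, than in HSCs. Among 28 tested genes of the amino acid response, 2 were higher and 11 lower in CLPs and 14 higher and 7 lower in GMPs than in HSCs, and *Nupr1* and *Vldlr*, both known as stress-induced transcripts, were lower by 4.00 and 4.01 in CLPs and by 4.80 and 4.78 in GMPs on the log2 scale. *Atf3* (1.03) and *Cars* (0.44) were higher in CLPs, and *Nars* (1.86) and *Eif2s1* (1.46) in GMPs. The call on *Cars* was lost with DESeq2, with no filter on low counts and in one model over the 24 libraries. Of 35 genes that sense amino acids for mTORC1, 0 were higher and 13 lower in CLPs and 13 were higher and 7 lower in GMPs. *Sesn3* and *Castor2*, encoding proteins that restrain mTORC1, were lower in GMPs than in HSCs (-2.03 and -2.15). *Sec13* and *Lamtor4* of the same list were higher in GMPs than in HSCs (1.48 and 1.57). In the Myc family, *Mycn* was lower in both progenitors (-4.53 in CLPs and -7.11 in GMPs) and *Myc* was higher in GMPs (1.17). All 10 cell cycle genes listed were higher in CLPs and in GMPs than in HSCs, with medians of 3.00 and 3.37. Their summed level was 295 to 564 CPM in O-WT HSCs, 1779 to 3766 in CLPs and 3676 to 4393 in GMPs, so cell cycle transcripts moved with the higher levels of the serine enzymes and *Slc7a5*, and their part in them was not tested.

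Per kilobase of exon, which allows genes to be compared with each other, *Phgdh* led in GMPs with 64.9 ± 7.88 RPKM (CPM per kilobase of exon, SD, n = 4) and *Slc7a11* was lowest with 0.525 ± 0.173. *Slc7a5* stood at 4.02 ± 0.758 RPKM in HSCs, where 7 of the other 9 transcripts were above it. It stood at 12.7 ± 3.83 RPKM in CLPs, with 4 above it, and at 30.6 ± 5.62 in GMPs, with 2 above it. The ratio of *Slc7a5* to *Slc3a2* in RPKM was 0.264 ± 0.035 in O-WT HSCs, against 1.37 ± 0.50 in CLPs and 1.24 ± 0.073 in GMPs (SD, n = 4). By this measure the light chain was present at less RNA than the heavy chain in every O-WT HSC library, at 0.229 to 0.303 of its level. It exceeded the heavy chain in every GMP library and in 3 of the 4 CLP libraries. The lengths used are the merged exons of all annotated transcripts, 3708 bases for *Slc7a5* and 3529 for *Slc3a2*. Lengths of the expressed transcripts were not measured, and the side of 1 on which a ratio lies depends on them.

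**Figure D3:**
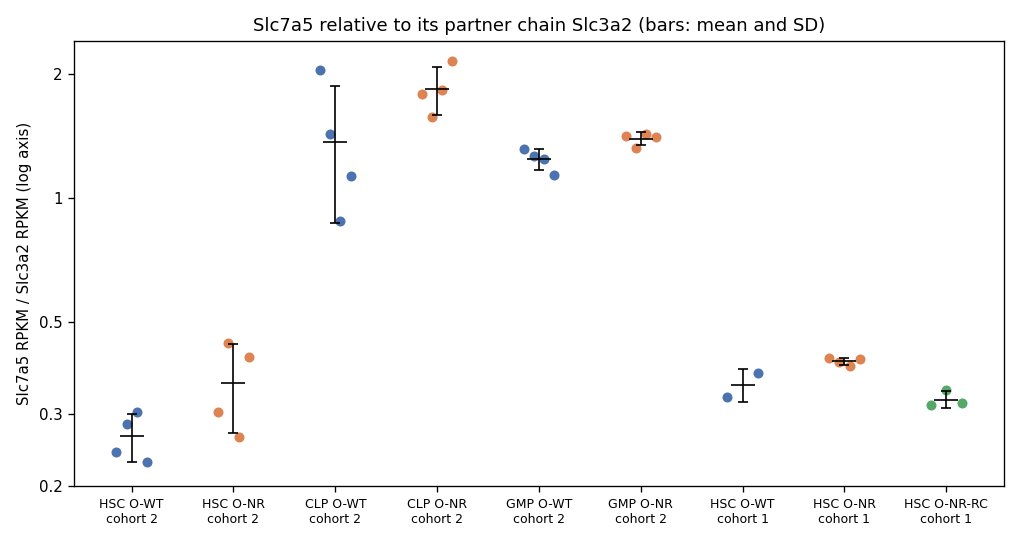
Ratio of *Slc7a5* to *Slc3a2* in RPKM (log axis) in each of the 33 libraries, by group, with bars for mean and SD (blue for O-WT, orange for O-NR, green for O-NR-RC). HSC libraries of both cohorts lie between 0.229 and 0.444, and CLP and GMP libraries between 0.880 and 2.15.

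The effect of NR in HSCs of cohort 2 is described next, as it chose *Slc7a5*. *Slc7a5* measured 18.2, 11.6, 13.9 and 15.9 CPM in O-WT and 23.9, 19.5, 22.2 and 26.9 in O-NR HSCs, a log2 fold change of 0.57 (SE 0.14). The groups did not overlap, which held for 0.68% of the 17364 genes tested in the higher direction, and the choice of the gene fixed this. At an unadjusted p of 0.01, 0.777% of all genes passed in this comparison, 0.49% in the higher direction. Of the other 9, the largest values were those of *Slc1a5* (0.26, SE 0.13), *Shmt2* (0.21, SE 0.17) and *Slc3a2* (0.15, SE 0.13), and their libraries overlapped. *Asns*, *Psat1* and *Phgdh* differed by 0.10, 0.08 and 0.03, and *Slc38a2*, *Mthfd2* and *Slc7a11* by -0.06, -0.07 and -0.24. *Phgdh*, the gatekeeper of serine synthesis, measured 56.3, 30.1, 35.6 and 50.2 CPM in O-WT and 48.3, 36.1, 51.3 and 47.3 in O-NR. The plasma and B cell markers summed to 36.4 to 732 CPM in O-WT and 7.60 to 118 CPM in O-NR HSCs, and their part in these values was not tested.

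CLPs did not take part in choosing *Slc7a5*, although the labels do not say whether the CLP and HSC libraries came from the same mice. *Slc7a5* measured 52.2, 51.9, 26.1 and 57.7 CPM in O-WT CLPs and 63.2, 74.7, 74.7 and 88.3 in O-NR CLPs. Every O-NR library lay above every O-WT library, as it did in the higher direction for 1.26% of the 19909 genes tested. The log2 fold change was 0.62 (SE 0.20, unadjusted p = 0.00369, adjusted p = 1 by edgeR's quasi-likelihood test). It passed the unadjusted threshold of 0.01, which 0.412% of the genes passed in either direction and 0.156% in the higher direction, and failed the correction for all genes. Of the 19909 genes, 0 had an adjusted p below 0.05 (edgeR), as in every other NR or withdrawal comparison. Over the alternatives the adjusted p was between 0.502 and 1.

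The lowest of the O-WT values, 26.1 CPM, came from replicate 3, the library with the fewest reads and the most receptor gene reads of its group. Without it the groups still did not overlap and the log2 fold change was 0.46 (unadjusted p = 0.0069, edgeR). Without O-NR replicate 4 it was 0.52 and no longer passed (unadjusted p = 0.0265, edgeR), and with no filter on low counts it was 0.65 (unadjusted p = 0.0105). With the receptor gene reads as a covariate it was 0.62 (unadjusted p = 0.000533, edgeR). The summed cell cycle genes were 1779 to 3766 CPM in O-WT and 2797 to 4553 in O-NR CLPs, the GMP markers 224 to 417 and 334 to 518, the neutrophil markers 39.0 to 165.5 and 9.93 to 129.9, and the plasma and B cell markers 322 to 734 and 606 to 839. Their part in the result was not tested.

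None of the other 9 transcripts passed the threshold in CLPs (unadjusted p from 0.2 to 0.974, edgeR). *Psat1* had 0.23 (SE 0.18), with 43.7, 35.1, 27.8 and 48.8 CPM in O-WT and 44.4, 53.7, 44.2 and 49.7 in O-NR. *Slc1a5*, *Shmt2*, *Phgdh*, *Slc3a2* and *Slc38a2* lay between 0.11 and 0.20, and *Slc7a11*, *Mthfd2* and *Asns* between -0.05 and 0.03, all with standard errors of 0.18 to 0.35. The O-NR values of *Slc1a5* (63.03 to 77.6 CPM) and *Psat1* were less spread than the O-WT values (39.3 to 72.5 CPM for *Slc1a5*). The spread was not tested.

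In GMPs 0 of the 10 transcripts passed, also at an unadjusted p of 0.05 and with DESeq2, where 0.986% of 13486 genes passed 0.01 by edgeR, 0.237% in the higher and 0.749% in the lower direction. *Slc7a5* measured 129, 131, 105 and 87.7 CPM in O-WT and 146, 126, 116 and 120.4 in O-NR GMPs, and the groups overlapped (0.16, SE 0.10, unadjusted p = 0.143, edgeR). *Shmt2* came closest, with 173, 195, 163 and 133 CPM in O-WT and 199, 184, 168 and 197 in O-NR (0.17, SE 0.087, unadjusted p = 0.0731, edgeR). *Mthfd2* (0.17), *Psat1* (0.13), *Slc1a5* (0.12), *Phgdh* (0.10) and *Asns* (0.07) were above 0, *Slc38a2* was at 0.02, *Slc3a2* at -0.00031 and *Slc7a11* at -0.22. With the receptor gene reads as a covariate *Shmt2* was 0.26 higher and passed (unadjusted p = 0.00231, adjusted p = 0.87, edgeR).

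The difference between the NR effects of CLPs and GMPs was tested directly. For *Slc7a5* it was 0.52 (SE 0.29, unadjusted p = 0.0812, adjusted p = 0.992, edgeR over all 24 libraries), so the larger effect in CLPs was not separated from that in GMPs. For the other 9 it lay between -0.12 and 0.33, with unadjusted p from 0.405 to 0.85. The call rate over all 22573 genes was 0.403% at an unadjusted p of 0.01.

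**Figure D4:**
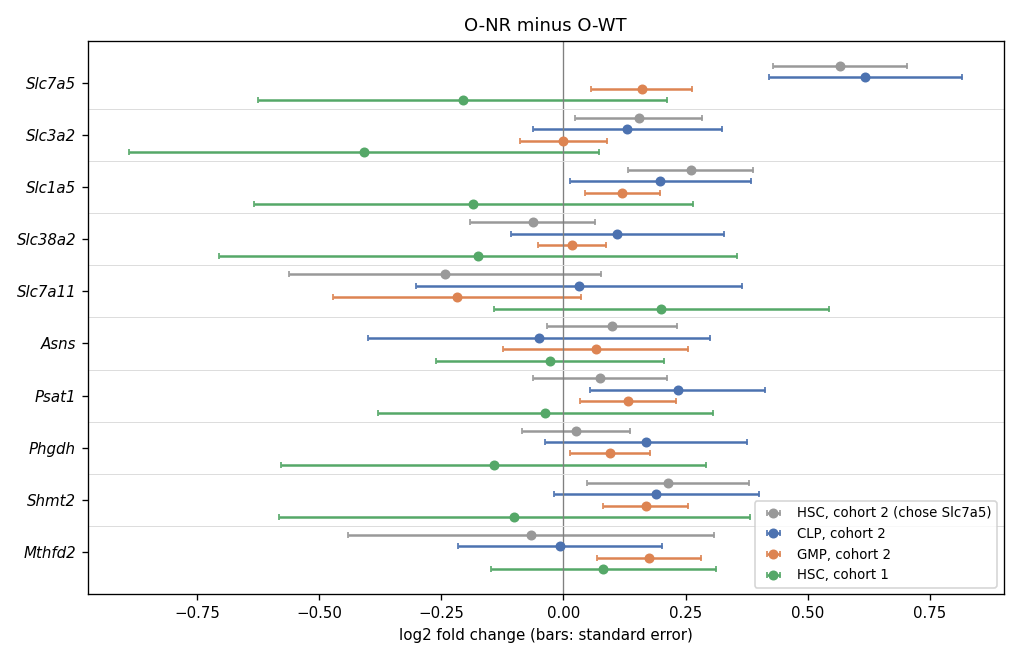
Log2 fold change of O-NR against O-WT (horizontal axis, points with bars of 1 standard error) for each transcript in HSCs of cohort 2 (grey, the comparison that chose *Slc7a5*), CLPs (blue), GMPs (orange) and HSCs of cohort 1 (green). *Slc7a5* reaches 0.57 and 0.62 in HSCs and CLPs of cohort 2, and the bars of cohort 1 span 0 for all 10.

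The wider lists held few calls under NR. These lists were chosen with earlier results of these data known. Their HSC libraries are also those that chose *Slc7a5*, so the p-values in HSCs are not separate evidence. In HSCs, *Slc43a2*, another leucine transporter, was higher (34.8, 19.05, 26.2 and 23.2 CPM in O-WT and 40.1, 28.03, 47.2 and 31.7 in O-NR, log2 fold change 0.43, unadjusted p = 0.00352, edgeR). *Sfxn1*, the mitochondrial serine carrier, measured 70.5, 48.2, 51.8 and 69.4 CPM and 86.1, 65.4, 90.4 and 80.9 CPM (0.35, unadjusted p = 0.00212, edgeR), and *Ass1* 8.47, 6.83, 5.22 and 9.75 and 13.6, 13.3, 11.1 and 14.6 CPM (0.74, unadjusted p = 0.00372, edgeR). Each of the 3 was the 1 gene called in its list, among 26 transporters, 29 serine and one-carbon enzymes and 20 other enzymes tested. Over all 17364 genes 0.777% passed in this comparison, 0.49% in the higher direction. The adjusted p-values of the 3 were 0.962 to 0.995 (edgeR). *Ass1* is the one of the 3 whose groups did not overlap. *Slc43a2* and *Sfxn1* no longer passed with no filter on low counts (unadjusted p = 0.0105 and 0.0369, edgeR) or in one model over the 24 libraries (0.0248 and 0.0338). Each of the 3 was lost in 3 of the 8 fits that left out 1 library, *Slc43a2* without O-WT replicate 4 or O-NR replicates 1 or 3, *Sfxn1* without O-WT replicate 3 or O-NR replicates 1 or 4, and *Ass1* without O-WT replicate 3 or O-NR replicates 2 or 4 (unadjusted p of up to 0.0206, 0.0116 and 0.0169, edgeR).

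In CLPs *Ddit4*, an inhibitor of mTORC1 that amino acid and other stresses induce, measured 6.16, 3.15, 4.86 and 3.87 CPM in O-WT and 1.90, 1.48, 2.36 and 1.94 in O-NR. It passed the filter of 3 CPM only through the O-WT libraries, so these values are given without a test. In GMPs 0.986% of all 13486 genes passed an unadjusted p of 0.01 (edgeR), 0.237% in the higher and 0.749% in the lower direction. Of the wider lists, *Cebpg*, a partner of ATF4, was lower there (-0.30, unadjusted p = 0.00454, edgeR). *Myc* was also lower (335, 362, 331 and 281 CPM in O-WT and 322, 271, 239 and 268 in O-NR, -0.26, unadjusted p = 0.00716, edgeR). *Eif2ak2*, a kinase upstream of ATF4, was higher (0.29, unadjusted p = 0.00726, edgeR). The adjusted p was 0.905 for each of the 3, and each call was lost in 6 of the 8 fits that left out 1 library (unadjusted p of up to 0.0189 for *Cebpg*, 0.0288 for *Myc* and 0.0307 for *Eif2ak2*, edgeR). They also did not pass with no filter on low counts (0.0231, 0.0426 and 0.0748) or in one model over the 24 libraries (0.153, 0.317 and 0.148), nor did *Myc* with receptor gene reads as a covariate (0.0189, edgeR).

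Cohort 1 offers a second set of NR-treated HSCs that the choice of *Slc7a5* did not use, though earlier results of these data were known. In it *Slc7a5* did not pass the test. It measured 30.8 and 25.4 CPM in O-WT mice, 17.2, 18.1, 28.4 and 33.7 in O-NR mice and 38.6, 14.2 and 13.9 after withdrawal. The log2 fold change was -0.21 (SE 0.42, unadjusted p = 0.631) for O-NR over O-WT, -0.13 (SE 0.37) for O-NR-RC over O-NR and -0.33 (SE 0.44) for O-NR-RC over O-WT by edgeR. Without O-NR-RC replicate 1 *Slc7a5* was lower in O-NR-RC than in O-WT by -0.998 on the log2 scale and passed the threshold (unadjusted p = 0.00719, adjusted p = 0.302 by edgeR's quasi-likelihood test). Of the 10 transcripts 0 passed an unadjusted p of 0.01 or 0.05 in any of the 3, also with DESeq2 at 0.01, against 0.048%, 0.0251% and 0.078% of all genes tested at 0.01 by edgeR. By direction, 0.021% were called higher and 0.027% lower against O-WT under NR, and 0.042% higher and 0.036% lower against O-WT after withdrawal.

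Set by their receptor gene reads, a split found in the data and not one of the study's groups, the libraries of cohort 1 did not overlap for 8 of the 10 transcripts, 7 lower and 1 higher in the 4 libraries of high receptor reads. The same held for 56.3% of the 30430 genes tested, 30.5% lower and 25.7% higher. In the 4 libraries above 10000 CPM of receptor reads, *Slc7a5* was 13.9 to 18.1 CPM, and in the 5 below it was 25.4 to 38.6 CPM. *Slc3a2* was 39.6 to 43.0 against 64.4 to 117 CPM, *Slc1a5* 27.6 to 34.6 against 51.1 to 75.5, and *Slc38a2* 77.5 to 84.7 against 127 to 211. Among the enzymes *Psat1* was 20.04 to 23.6 against 27.1 to 39.8 CPM, *Phgdh* 36.4 to 37.7 against 55.2 to 82.1 and *Shmt2* 24.3 to 32.6 against 51.4 to 74.3. *Slc7a11* had the opposite split, 28.8 to 36.1 against 18.2 to 25.7 CPM. *Asns* (20.3 to 22.7 against 22.6 to 27.3 CPM) and *Mthfd2* (9.61 to 12.9 against 7.82 to 11.9 CPM) were the 2 that overlapped. The library of lowest receptor reads, O-NR-RC replicate 1, had the highest value of 7 of the 10, as the plot against receptor gene reads shows.

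Without the 4 libraries, which leaves 2 libraries each of O-WT and O-NR and 1 after withdrawal, *Slc7a5* was 0.10 higher in O-NR than in O-WT (unadjusted p = 0.489, edgeR) and 0.35 higher in O-NR-RC than in O-WT (unadjusted p = 0.0642, edgeR). The direction turned against the fit of all 9 libraries in both cases. The lone O-NR-RC library is assumed in this fit to vary like the other groups. The other 9 ranged from -0.23 (*Slc7a11*) to 0.31 (*Shmt2*, unadjusted p = 0.0375) in O-NR over O-WT, and *Slc3a2* was 0.58 higher in O-NR-RC than in O-NR (unadjusted p = 0.00404, adjusted p = 0.179, edgeR).

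**Figure D5:**
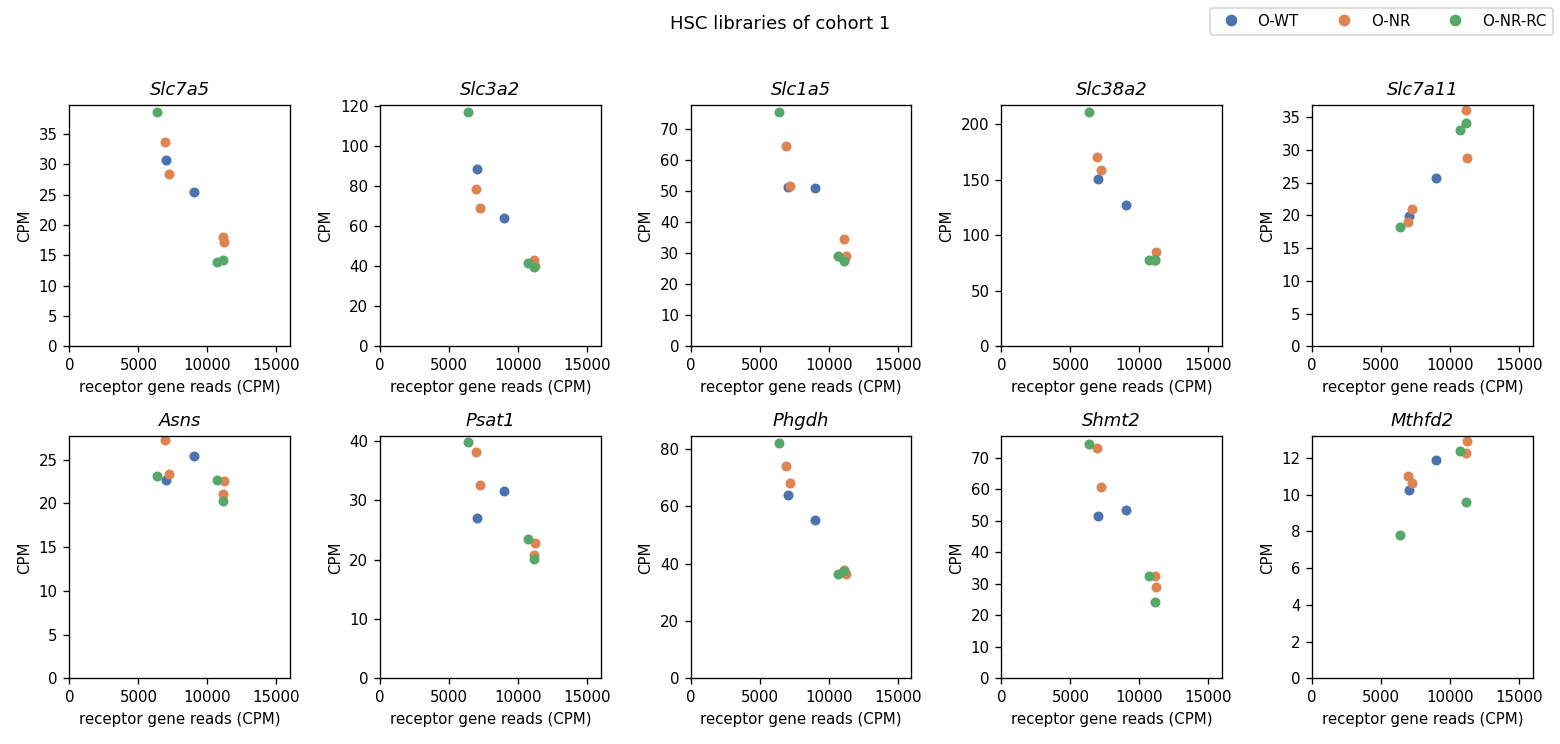
Level of each transcript in CPM (vertical axis, starting at 0) against the summed CPM of 1736 olfactory and vomeronasal receptor genes (horizontal axis) in the 9 HSC libraries of cohort 1, colored green for O-NR-RC, orange for O-NR and blue for O-WT. The 4 libraries above 10000 CPM hold the lowest values of *Slc7a5*, *Slc3a2*, *Slc1a5*, *Slc38a2*, *Psat1*, *Phgdh* and *Shmt2* and the highest of *Slc7a11*.

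Within cell types of cohort 2 the same measure moved with the transcripts. Over the 8 HSC libraries Pearson's r between log2 CPM and log2 receptor reads was -0.957 for *Phgdh*, -0.953 for *Slc3a2*, -0.935 for *Shmt2*, -0.928 for *Asns* and -0.885 for *Slc38a2*, and it was -0.542 for *Slc7a5*. Over the 8 CLP libraries it was 0.916 for *Slc7a11*, -0.914 for *Phgdh*, -0.850 for *Shmt2*, -0.845 for *Slc38a2* and -0.367 for *Slc7a5*, and over the 8 GMP libraries -0.723 for *Slc38a2* and -0.497 for *Slc7a5*. These points share library depth and quality, so the values are descriptive. In HSCs the value of *Slc7a5* also holds the difference between O-WT and O-NR that chose it. Receptor reads of HSCs were 1709 to 3238 CPM in O-WT and 1817 to 2905 CPM in O-NR.

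The ratio of the 2 chains removes what moves both alike. In cohort 1 *Slc7a5* over *Slc3a2* was 0.329 and 0.376 in O-WT, 0.391 to 0.409 in the 4 O-NR and 0.314 to 0.342 in the 3 O-NR-RC libraries, so that every O-NR library lay above every other library of the cohort. A ratio to *Slc3a2* that lay wholly above O-WT in O-NR was found for 8.93% of the 33349 other genes tested, against 0.108% wholly below. One wholly below O-NR in O-NR-RC was found for 2.94%, against 0.0502% wholly above. The share of genes with both patterns was not counted. The log2 fold change of O-NR over O-WT was -0.41 for *Slc3a2* (SE 0.48) and -0.21 for *Slc7a5* (SE 0.42), both below 0. In GMPs the ratio was 1.14 to 1.31 in O-WT and 1.32 to 1.43 in O-NR, without overlap, as for 0.653% of 13485 genes. In CLPs it was 0.880 to 2.04 and 1.57 to 2.15, and in HSCs of cohort 2, the comparison that chose the gene, 0.229 to 0.303 and 0.264 to 0.444, with overlap in both. The ratio was chosen after these values were known and was not tested.

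The 5 transcripts most like *Slc7a5* among 16055 genes, by Pearson's r of log2 CPM centred on each cell type over the 24 libraries of cohort 2, were *Slc7a1* (0.918), *Slc16a1* (0.914), *Heatr3* (0.908), *Psme3* (0.901) and *Lgals3bp* (0.887). *Slc7a1* carries arginine and lysine and *Slc16a1* carries lactate. In the 9 libraries of cohort 1, where the receptor read split moves most genes, r with *Slc7a5* was 0.903 to 0.994 for these 5, and its median over all 16055 genes was 0.883, with 47.4% of them above 0.9. It does not set the 5 apart there. Of the other 9 transcripts described here, *Psat1* (0.817) and *Slc1a5* (0.805) came nearest, at ranks 159 and 210, followed by *Shmt2* (0.722), *Slc3a2* (0.621), *Phgdh* (0.621) and *Slc38a2* (0.603). *Asns* (0.423) and *Mthfd2* (0.330) were less alike, and *Slc7a11* was inverse (-0.352). These correlations are across libraries that also differ in receptor gene reads and treatment, and are given as a description.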

How the data were processed

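Total RNA of sorted HSCs, CLPs and GMPs was sequenced with the SMARTer Stranded Total RNA-Seq Pico kit. The authors trimmed reads with trim galore and cutadapt, aligned them to mm10 with STAR and counted reads per gene with featureCounts, and deposited these raw counts for each library. The versions of STAR and featureCounts, the use of strand and the treatment of multi-mapping reads are not given in the sources used here. The members and the wider gene lists were chosen with earlier results of these data known.

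Counts were scaled by TMM in edgeR 4.0.16 (R 4.3.3, limma 3.58.1) and are given as CPM with TMM, or RPKM over the exon length of Gencode M21 (GRCm38). Genes were tested where the number of libraries above 3 CPM reached the size of the smallest group, using edgeR's quasi-likelihood test, over all genes and with Benjamini-Hochberg adjustment. Cell types were called at an adjusted p of 0.05, and NR and withdrawal at an unadjusted p of 0.01, 1 of the cutoffs of the study, whose cutoff on the fold change was not applied. Cell type fits held the 12 O-WT libraries of cohort 2, each NR fit the 8 libraries of 1 cell type, and cohort 1 its 9 libraries. Of each wider list, up to 2 higher and 2 lower genes with the smallest p among those called between cell types, and each gene called under NR, could be named, and some of these are given, while others are not reported here. Correlations used log2 CPM with a prior count of 2. The fits were tested on simulated data. Alternatives were DESeq2 1.42.0, upper quartile scaling, no filter, a replicate block, one model over 24 libraries, a receptor read covariate and leaving out each library. The labels do not pair libraries by replicate number. Same-numbered libraries were compared by correlation of deviations from group means. All pairs were above 0 for O-WT HSCs with CLPs (0.113 to 0.417 over 4 pairs) and O-NR CLPs with GMPs (0.042 to 0.272 over 4 pairs). The same held for cohort 1 O-NR-RC with O-WT (0.437 to 0.467 over 2 pairs). These are hints from the data and not from the labels. No 2 libraries of a group were copies of the same counts (smallest chi-square per degree of freedom 1.96). The check cannot tell technical replicates of 1 RNA. In cohort 1 the value was 1.96 for O-NR replicates 1 and 2, 3.84 for O-NR 3 and 4 and 4.02 for O-NR-RC 2 and 3. For the other pairs within O-NR and within O-NR-RC it was 53.1 to 101.5.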

Additional observations from a re-analysis of the deposited data

Results flagged for a closer look

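*Slc1a5* in O-WT GMPs had 1 library far from the other 3. Replicate 4 measured 70.5 CPM and the others 85.7 to 88.3 CPM, so that the gap was 0.852 of the range of the group, above Dixon's critical value for 4 libraries. It was the only one found among 70 groups of transcripts and libraries checked, and chance flags about 1 in 20 such groups.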

How the results depend on the processing

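The calls on *Slc7a5*, *Mthfd2*, *Phgdh* and *Asns* in CLPs over HSCs and on 7 transcripts in GMPs over HSCs held under every alternative run. The number of the 10 called in CLPs over HSCs was 8, and 6 to 9 without 1 library and 4 with no filter on low counts. In GMPs over CLPs it was 7, and 4 with receptor gene reads as a covariate. Under NR in CLPs it was 1, and 0 with no filter and 0 to 1 without 1 library. Under NR in GMPs it was 0, and 1 with the receptor covariate. In cohort 1 it was 0, and 1 in O-NR-RC over O-NR without the 4 high receptor libraries and 0 to 1 in O-NR-RC over O-WT without 1 library. The number highest in GMPs was 8, and 5 in CPM without TMM. The receptor covariate and the omission of the 4 libraries were chosen after seeing the data. The share of all genes called was not counted with no filter, with the receptor covariate or without libraries. A change of the counts in those fits is therefore not a result about the 10. Over all genes the share of calls in the higher direction was 63% with TMM and 49.8% with upper quartile scaling under NR in HSCs, 24.1% and 41.5% in GMPs, and 43.8% with TMM and 79.7% with DESeq2 in cohort 1 O-NR over O-WT (7 higher and 9 lower against 51 and 13), 100% and 77.8% in O-NR-RC over O-NR, 53.8% and 82.1% in O-NR-RC over O-WT (14 higher and 12 lower against 87 and 19) and 25.3% and 35.9% in the difference of NR effects. Depth limits the low transcripts, *Slc7a11* and *Mthfd2* in HSCs of cohort 2 being under 10 CPM.

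The log2 fold changes that turned sign follow, and the cause was not tested. With DESeq2 the turned values were *Asns* 0.17 in GMPs over HSCs, *Slc7a11* 0.0019 in GMPs over CLPs, *Mthfd2* 0.025 under NR in CLPs, *Slc3a2* 0.0026 under NR in GMPs, *Slc38a2* 0.0099 in O-NR-RC over O-NR, *Asns* 0.023 in the difference of NR effects. With upper quartile scaling the turned values were *Slc7a11* -0.10 in GMPs over HSCs, *Slc1a5* -0.018, *Slc38a2* -0.25 and *Mthfd2* -0.051 in GMPs over CLPs, *Slc7a11* -0.046 under NR in CLPs, *Slc3a2* 0.018 under NR in GMPs, *Asns* 0.042 and *Psat1* 0.011 in cohort 1 O-NR over O-WT, *Phgdh* -0.0018 and *Shmt2* -0.048 in the difference of NR effects. With no filter on low counts the turned values were *Asns* 0.22 in GMPs over HSCs, *Slc7a11* 0.21 in GMPs over CLPs, *Mthfd2* 0.032 under NR in CLPs, *Slc38a2* -0.021 under NR in GMPs, *Slc38a2* 0.016 in O-NR-RC over O-NR, *Asns* 0.020 in the difference of NR effects. With one model over the 24 libraries of cohort 2 the turned values were *Asns* 0.0094 and *Mthfd2* 0.060 under NR in CLPs, *Slc3a2* 0.0041 under NR in GMPs. With receptor gene reads as a covariate the turned values were *Slc7a11* -0.018 in CLPs over HSCs, *Slc38a2* -0.36, *Slc7a11* 0.51, *Gldc* 0.056 and *Aldh1l2* 0.12 in GMPs over CLPs, *Slc3a2* 0.064 under NR in GMPs, *Slc7a11* -0.0011, *Psat1* 0.061, *Phgdh* 0.0024 and *Shmt2* 0.025 in cohort 1 O-NR over O-WT, *Psat1* 0.042 in O-NR-RC over O-WT. Without the 4 high receptor libraries of cohort 1 the turned values were *Slc7a5* 0.10, *Slc1a5* 0.14, *Slc38a2* 0.21, *Slc7a11* -0.23, *Asns* 0.033, *Psat1* 0.23, *Phgdh* 0.21, *Shmt2* 0.31 and *Mthfd2* -0.072 in cohort 1 O-NR over O-WT, *Slc7a5* 0.23, *Slc1a5* 0.29, *Slc38a2* 0.28, *Slc7a11* -0.22, *Psat1* 0.086, *Phgdh* 0.13 and *Shmt2* 0.068 in O-NR-RC over O-NR, *Slc7a5* 0.35, *Slc3a2* 0.50, *Slc1a5* 0.45, *Slc38a2* 0.50, *Slc7a11* -0.44, *Psat1* 0.33, *Phgdh* 0.35 and *Shmt2* 0.39 in O-NR-RC over O-WT.

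Without 1 library the ranges of values that turned were, in GMPs over HSCs *Slc7a11* -0.027 to 0.33 and *Asns* -0.053 to 0.11, in GMPs over CLPs *Slc7a11* -0.29 to 0.065, under NR in CLPs *Slc38a2* -0.053 to 0.27, *Slc7a11* -0.13 to 0.25, *Asns* -0.18 to 0.10 and *Mthfd2* -0.19 to 0.099, under NR in GMPs *Slc3a2* -0.055 to 0.051, *Slc38a2* -0.017 to 0.048, *Slc7a11* -0.36 to 0.060 and *Asns* -0.13 to 0.23, in cohort 1 O-NR over O-WT *Asns* -0.11 to 0.043, *Psat1* -0.21 to 0.089, *Phgdh* -0.33 to 0.0050, *Shmt2* -0.36 to 0.080 and *Mthfd2* -0.022 to 0.17, in O-NR-RC over O-NR *Slc7a5* -0.79 to 0.11, *Slc3a2* -0.51 to 0.45, *Slc1a5* -0.67 to 0.21, *Slc38a2* -0.66 to 0.23, *Slc7a11* -0.036 to 0.36, *Psat1* -0.39 to 0.14, *Phgdh* -0.55 to 0.14 and *Shmt2* -0.78 to 0.12, in O-NR-RC over O-WT *Slc3a2* -0.92 to 0.044, *Slc1a5* -0.85 to 0.025, *Slc38a2* -0.84 to 0.053, *Psat1* -0.43 to 0.11 and *Shmt2* -0.88 to 0.024, in the difference of NR effects *Slc1a5* -0.017 to 0.27, *Slc38a2* -0.046 to 0.36, *Asns* -0.20 to 0.19, *Phgdh* -0.013 to 0.31, *Shmt2* -0.098 to 0.24 and *Mthfd2* -0.29 to 0.00035.

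Libraries of different groups share replicate numbers, and the numbers were not shown to pair them. The correlation of deviations from group means between same-numbered O-WT and O-NR libraries averaged 0.145 in HSCs, 0.046 in CLPs and 0.057 in GMPs, and at least 1 pair was below 0 in each. Between O-WT HSCs and CLPs all 4 pairs were above 0.1 (0.113 to 0.417), and between O-WT GMPs and either of them the mean was below 0. Between O-NR CLPs and GMPs all 4 pairs were above 0 (0.042 to 0.272). In cohort 1 both the 2 pairs of O-NR-RC with O-WT were above 0 (0.437 to 0.467). With the replicate block the turned values were *Slc3a2* 0.0017 under NR in GMPs, *Slc1a5* 0.097, *Slc38a2* 0.12, *Slc7a11* -0.026, *Psat1* 0.12, *Phgdh* 0.099 and *Shmt2* 0.053 in O-NR-RC over O-NR. With the block *Slc38a2* passed in GMPs over HSCs (0.51, adjusted p = 0.031, edgeR) and *Slc7a5* under NR in CLPs was 0.64 (unadjusted p = 0.000385, edgeR), and the counts of called transcripts were 8, 8 and 7 between cell types, with no call on the 10 lost.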
